A study of Mus musculus with 6 samples.

Results

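The myosin heavy chains, myosin light chains and myosin light chain kinases were examined in the RNA-seq comparison of H19 knockdown with control in C3H myotubes. Members were chosen by a rule on gene names. The gene column of the deposited table was divided at commas, and a feature was kept when a symbol began with Myh or Myl and a digit, with Mylk or with Mylpf. This gave 10 features carrying 15 gene symbols, among 3019 listed features of which 2549 carried a symbol. A feature here is a gene-level unit of the authors' transcript assembly, and neighbouring genes can be joined in 1 feature.

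C3H cells are a mouse myoblast line, and in medium of low serum they fuse into multinucleated myotubes. Both groups were differentiated in the same way, transfected with siRNA 40 h after differentiation began and collected 48 h after that, and the samples carry the label day 4. The siCon group received a control siRNA and the siH19 group an siRNA against H19, a maternally expressed long noncoding RNA that is abundant in differentiating muscle cells. Each group had 3 libraries of total RNA depleted of rRNA. The cells are of 1 line, and the sources used here do not say whether the libraries of a group came from separate cultures on different days.

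Each feature has 1 log2 FPKM value per group (sequenced fragments relative to transcript length and to the size of the library), the authors' value pooled over the 3 libraries. The spread between replicates therefore could not be computed, no test was run here and the authors' q-values were not used, and the depth of the libraries is unknown. Levels are per length and may be set side by side between genes, but a difference between neighbours in an order of levels has no error to be read against. Differences are siH19 minus siCon on the log2 FPKM scale, and rounding of the deposited values alone can move one by 0.01. Every listed feature was marked significant by the authors, so a gene that is not listed has no value here and may be expressed or not. The siRNA target was lower as labelled: H19 was at 11.20 log2 FPKM in siCon and 7.50 in siH19, which leaves 7.69% of the siCon level, and 2 of the listed features had a larger decrease.

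Muscle myosin is a hexamer of a pair of heavy chains, which carry the motor head and the rod that packs into the thick filament, with an essential and a regulatory light chain wrapped around each neck. Heavy and light chains come in isoforms that replace each other during development and between fibre types. Embryonic Myh3 and perinatal Myh8 precede the adult fast heavy chains Myh1 (type 2X), Myh2 (type 2A) and Myh4 (type 2B), while Myh7 is the heavy chain of slow fibres and, with Myh6, of the heart. Mylpf and Myl1 are the regulatory and essential light chains of fast muscle, Myl2 is the regulatory chain of slow muscle and ventricle, and Myl4 is the essential chain of embryonic muscle and atrium. The kinases of the Mylk genes phosphorylate regulatory light chains in response to calmodulin.

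A further limit of the table concerns the isoforms themselves. Embryonic, perinatal and adult fast heavy chain genes lie side by side on chromosome 11, and they were joined in 1 feature, XLOC_003740, at chr11:67078300-67308633 on the plus strand of mm10. In the GENCODE annotation of GRCm38 (the same assembly), the feature starts at the start of Myh3, which spans its first 24 kb, and Myh2, Myh1, Myh4 and Myh8 begin 92.7, 122, 160 and 199 kb from that point. Myh13, the next heavy chain gene of the cluster, was not listed. The paralogs Myh6 and Myh7 were joined likewise in XLOC_008633, at chr14:54941921-54994606 on the minus strand, with Myh6 in the first 25 kb and Myh7 from 28.8 kb onward.

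**Figure D1:**
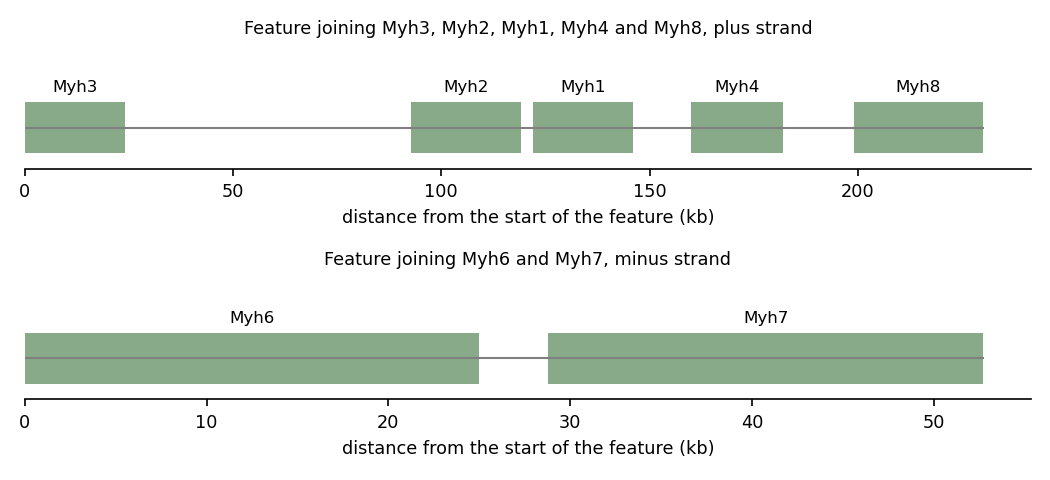
The 2 heavy chain features that join several genes, drawn to scale with the distance from the feature's lower genomic coordinate in kb on the horizontal axis and each annotated gene as a bar. The 5 genes of the upper feature are spread over 230 kb, and Myh6 and Myh7 of the lower one over 52.7 kb.

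How alike the joined genes are was read from the longest complete coding sequence of each gene in the same annotation. Among the 5 genes of the chromosome 11 feature, 10 pairs were aligned end to end, and 81.0 to 91.1% of aligned positions were identical. The most alike were Myh1 and Myh2 with 91.1%, and the least alike Myh1 and Myh3 with 81.0%. Against Myh6 and Myh7 the same 5 genes shared 78.0 to 78.8%, Myh6 and Myh7 shared 91.7% with each other, and nonmuscle Myh14 shared 60.0 to 61.1% with these 7 genes. Of all stretches of 76 bases, the read length of the libraries, 956 of 5754 in Myh1 (16.6%) were found letter for letter in another gene of the feature, and 16.7% in Myh2, 11.7% in Myh8 and 9.4% in Myh4. In Myh3, the embryonic gene, 32 of 5748 did (0.557%). In Myh6 and in Myh7, 928 stretches (16.2%) were held in common. Stretches of this kind cannot be assigned to 1 gene of the feature from their letters alone. Fragments were sequenced from both ends, so the other read of a pair may still tell the genes apart. The 5 genes of the chromosome 11 feature shared no such stretch with Myh6, Myh7 or Myh14, and other genes, Myh13 among them, were not searched.

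The stretch of 76 coding bases in which the 5 joined genes were most alike is shown because a read of it cannot be assigned among Myh1, Myh2 and Myh4, whereas Myh3 and Myh8 each differ from these at 1 base. It lies in exon 16 of Myh1 at chr11:67208857-67208932, and in Myh3 and Myh8 at chr11:67088822-67088897 and chr11:67289531-67289606, all on the plus strand of GRCm38. Myh2 (chr11:67181039-67181114) and Myh4 (chr11:67248450-67248525) have the letters of Myh1 throughout. Capitals mark bases that differ from Myh1.
Myh1: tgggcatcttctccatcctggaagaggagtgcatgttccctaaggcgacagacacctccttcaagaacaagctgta
Myh3: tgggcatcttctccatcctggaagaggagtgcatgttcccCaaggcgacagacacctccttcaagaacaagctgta
Myh8: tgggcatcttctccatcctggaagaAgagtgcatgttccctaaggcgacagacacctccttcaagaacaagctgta

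The stretch within 1 exon in which they were least alike is shown because its letters differ between all 5. It lies in exon 10 of Myh1, at chr11:67205524-67205599 for Myh1, chr11:67177375-67177450 for Myh2, chr11:67084965-67085040 for Myh3, chr11:67243245-67243320 for Myh4 and chr11:67284455-67284530 for Myh8, again on the plus strand. From Myh1, Myh2 differed at 14 of the 76 bases, Myh3 at 13, Myh4 at 16 and Myh8 at 11, which are in capitals.
Myh1: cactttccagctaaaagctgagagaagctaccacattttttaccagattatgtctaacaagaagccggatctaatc
Myh2: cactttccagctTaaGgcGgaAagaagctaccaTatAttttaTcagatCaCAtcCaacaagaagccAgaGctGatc
Myh3: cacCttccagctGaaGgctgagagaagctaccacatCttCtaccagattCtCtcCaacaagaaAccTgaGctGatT
Myh4: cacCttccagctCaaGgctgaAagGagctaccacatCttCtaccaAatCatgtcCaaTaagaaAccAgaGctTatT
Myh8: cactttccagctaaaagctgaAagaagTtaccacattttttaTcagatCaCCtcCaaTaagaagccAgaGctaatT
The deposited value is nevertheless 1 level for all 5 genes, so that embryonic, perinatal and adult fast heavy chains could not be compared with each other here.

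The sarcomeric chains were all higher in siH19 where they were listed, although Myl1 was within rounding error of 0 once differences were centred on the median of features with a symbol. This held for both heavy chain features of muscle, for both regulatory and for both essential light chains, 6 features in all, with differences from 0.42 to 2.45 and a median of 0.98. Slow or cardiac Myl2 had a larger difference than fast Mylpf, embryonic or atrial Myl4 a larger one than fast Myl1, and Myh6,Myh7 a larger one than the joined feature of embryonic, perinatal and fast heavy chains. Of the 3 listed kinases 2 were lower. Of the 10 myosin features, 7 were higher in siH19 (62.8% of all 3019 listed features were) and 3 were lower (37.2% of all). The first count is near the share of the whole list. At least 1.5-fold, 6 were higher and 2 lower, where 37.4% and 16.9% of all listed features were. With differences centred on the median of features with a symbol, 4 were higher and 3 lower by as much, Mylk joining the lower ones. The median difference over the 10 features was 0.74, with a range from -1.53 to 2.45, beside 0.45 over all listed features and 0.41 over those with a symbol.

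**Figure D2:**
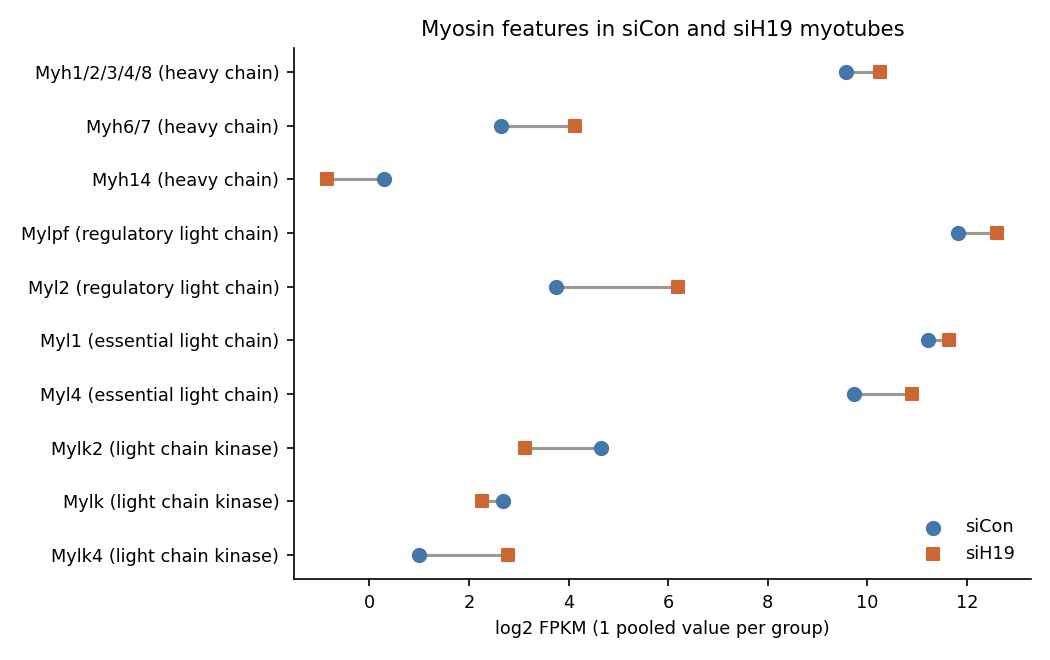
Level of each myosin feature in siCon (circles) and siH19 (squares), in log2 FPKM on the horizontal axis, with 1 value pooled over 3 libraries per group and no error known. The fast light chains Mylpf and Myl1 stand highest in both groups, Myl2 moves from 3.75 to 6.20, and Mylk2, Mylk and Myh14 have their square to the left of the circle.

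In the order of levels, the fast and embryonic chains stood far above the slow ones in both groups. Mylpf ranked 3 of all listed features in siCon, Myl1 ranked 6, Myl4 ranked 19 and the joined feature of Myh1, Myh2, Myh3, Myh4 and Myh8 ranked 22. In siH19 these ranks were 3, 5, 9 and 17. Below them in siCon came Mylk2 (rank 618), Myl2 (1064), Mylk (1622), Myh6,Myh7 (1644), Mylk4 (2210) and Myh14 (2381). In siH19 the order below the 4 abundant features changed, to Myl2 (236), Myh6,Myh7 (1011), Mylk2 (1513), Mylk4 (1651), Mylk (1866) and Myh14 (2706). Mylk and Myh6,Myh7 had levels of 2.69 and 2.64 in siCon, and no spread is known by which to separate such neighbours.

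Among the heavy chains, the joined embryonic, perinatal and fast feature had a level of 9.57 log2 FPKM in siCon and 10.25 in siH19, about 760 and 1218 FPKM. The difference of 0.68 is 1.6-fold, and 932 listed features had a larger increase. Centred on the median of features with a symbol, this feature and Mylpf were no longer 1.5-fold higher. The cardiac and slow feature Myh6,Myh7 was far lower, at 2.64 in siCon and 4.13 in siH19, about 6.23 and 17.5 FPKM. Its difference of 1.49 is 2.81-fold, the larger of these sarcomeric heavy chain increases, and 255 listed features exceeded it. Whether Myh6 or Myh7 carried this could not be told, as they share 1 value. Gm17428, annotated on the opposite strand inside this locus, was not listed.

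Myh14 (XLOC_025244, chr7:44605803-44670843, minus strand), the heavy chain of nonmuscle myosin 2C, was the only listed heavy chain feature that was lower. It was at 0.29 log2 FPKM in siCon and -0.84 in siH19, about 1.22 and 0.559 FPKM. This leaves 45.7% of the siCon level, and its difference of -1.13 was exceeded by 134 larger decreases. With a pseudocount of 1 FPKM, Myh14 was no longer at least 1.5-fold lower. It was the least abundant of the 10 features in both groups. The other nonmuscle heavy chains Myh9 and Myh10 and smooth muscle Myh11 were not listed.

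The regulatory light chains bind the neck of the heavy chain near the rod and are the substrate of the Mylk kinases. Mylpf (XLOC_024565, chr7:127211608-127214287, plus strand) was the most abundant member in both groups, at 11.81 log2 FPKM in siCon and 12.61 in siH19, or about 3591 and 6252 FPKM. The difference was 0.80, or 1.74-fold. Myl2 (XLOC_020751, chr5:122100922-122138062, plus strand), its slow and ventricular paralog, was at 3.75 in siCon and 6.20 in siH19, about 13.5 and 73.5 FPKM. Its difference of 2.45, or 5.46-fold, was the largest of the 10 features, and 31 listed features had a larger increase. The Myl2 locus also spans Ccdc63 on the opposite strand, which was not listed. The kit kept the strand of the RNA, but the sources used here do not state whether the counting used it, so reads of overlapping opposite genes may not have been told apart. The same holds for Gm17428 at Myh6,Myh7, Cdc27 at Myl4 and Wrnip1 at Mylk4.

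The essential light chains stabilise the neck nearer the motor head. Myl1 (XLOC_001200, chr1:66924296-66945056, minus strand), whose alternative starts give the fast skeletal long and short forms, was at 11.22 log2 FPKM in siCon and 11.64 in siH19, about 2385 and 3191 FPKM. Its difference of 0.42, or 1.34-fold, was the smallest among the sarcomeric chains and below 1.5-fold. Myl4 (XLOC_004277, chr11:104502409-104596122, plus strand) was at 9.74 and 10.90, about 855 and 1911 FPKM. Its difference was 1.16, or 2.23-fold, so the embryonic essential chain differed more than the fast one. The feature covers 93.7 kb, and the annotated Myl4 gene starts only at 104550663, so that the locus reaches beyond Myl4 and across Cdc27 on the opposite strand, which was not listed. The slow and ventricular essential chain Myl3 was not listed, nor were Myl6 and Myl6b of nonmuscle and smooth muscle.

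The kinases did not move in 1 direction. Mylk2 (XLOC_015331, chr2:152911352-152923065, plus strand), the kinase of skeletal muscle, was at 4.66 log2 FPKM in siCon and 3.13 in siH19, or about 25.3 and 8.75 FPKM. This leaves 34.6% of the siCon level. The difference of -1.53 was the largest decrease of the 10 features, with 65 larger decreases in the list. Mylk4 (XLOC_007393, chr13:32700827-32822610, minus strand), a related kinase of muscle, was at 0.99 and 2.79, about 1.99 and 6.92 FPKM, a difference of 1.80 or 3.48-fold. Its locus also holds D930007J09Rik on the same strand, which was not listed, so its value may include reads of that gene. Mylk (XLOC_010414, chr16:34745294-35002593, plus strand), the kinase of smooth muscle and nonmuscle cells, was at 2.69 and 2.27, a difference of -0.42 that leaves 74.7% of the siCon level. Thus the kinase that was most abundant in siCon was the one with the largest decrease, and in siH19 the 3 kinases lay between 2.27 and 3.13. Mylk3, the cardiac kinase, was not listed.

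**Figure D3:**
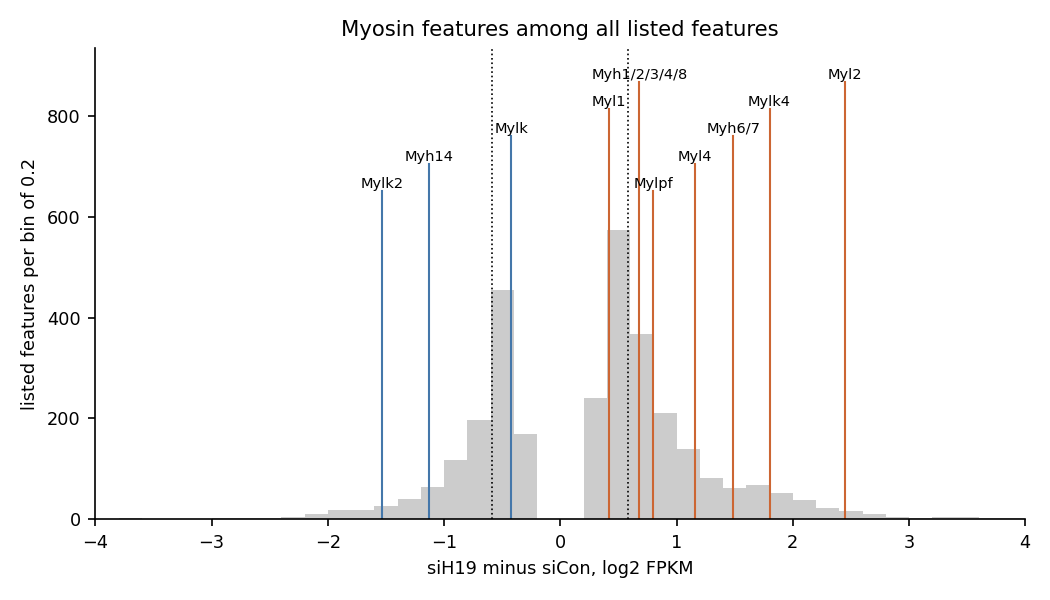
Histogram of siH19 minus siCon in log2 FPKM over the listed features in bins of 0.2, with the 10 myosin features as labelled vertical lines and 1.5-fold as dotted lines; 5 features lie outside the axis. The table lists only features marked significant and holds none close to 0, and the myosin features run from Mylk2 at -1.53 to Myl2 at 2.45.

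Within each role, the ratio of the more abundant feature to its less abundant paralog was smaller in siH19. For the light chains the more abundant feature was the fast chain, and for the heavy chains it was the joined feature, in which fast, embryonic and perinatal genes share 1 value. The joined Myh1, Myh2, Myh3, Myh4 and Myh8 feature exceeded Myh6,Myh7 by 6.93 log2 units in siCon and 6.12 in siH19, that is 122-fold and 69.6-fold. Mylpf exceeded Myl2 by 8.06 in siCon and 6.41 in siH19, or 267-fold and 85.0-fold, so the share of Myl2 in their sum went from 0.373 to 1.16%. The change of the log2 ratio was -0.81 for the heavy chains and -1.65 for the regulatory light chains.

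For the essential light chains the fast and slow pair of Myl1 and Myl3 had no value, and Myl1 over Myl4 was used in its place, a pair chosen after it was seen which chains were listed. Myl1 exceeded Myl4 by 1.48 log2 units in siCon and 0.74 in siH19, or 2.79-fold and 1.67-fold, a change of -0.74. The share of Myl4 in the sum of both was 26.4% in siCon and 37.5% in siH19. All 3 ratios thus changed in the same direction, and Myl2, Myh6,Myh7 and Myl4 were the smaller part of their sums in both groups. A ratio between paralogs does not depend on the scaling of a library.

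**Figure D4:**
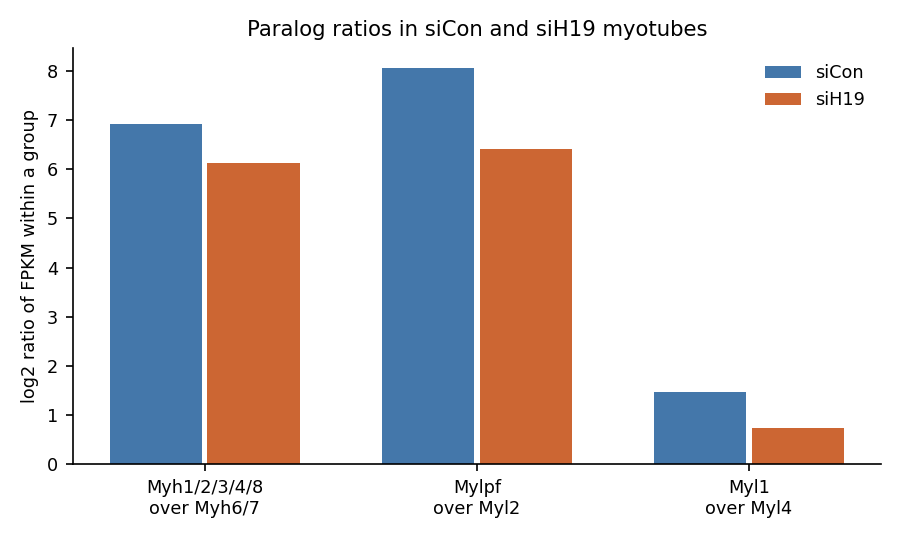
Log2 ratio of FPKM of the more abundant feature over its paralog (the joined Myh1, Myh2, Myh3, Myh4 and Myh8 feature over Myh6,Myh7, Mylpf over Myl2 and Myl1 over Myl4) within siCon and within siH19, as bars from 0, with 1 pooled value per bar and no error known. The siH19 bar is the lower one in each of the 3 pairs, at 6.12 against 6.93, 6.41 against 8.06 and 0.74 against 1.48.

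Summed over the listed chains, the sarcomeric light chains were at about 6845 FPKM in siCon and 11427 in siH19, 1.67-fold, and the sarcomeric heavy chains at 766 and 1235, 1.61-fold. The regulatory sum was 1.75-fold and the essential sum 1.57-fold higher. Light chain over heavy chain was 8.93 in siCon and 9.25 in siH19, so both sums differed by near the same factor. The heavy and regulatory sums mostly repeat their most abundant features. In siCon the joined heavy chain feature gave about 760 of 766 FPKM, and Mylpf about 3591 of the regulatory 3604. These sums leave out chains that were not listed.

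Markers of cell types were set beside the myosin levels. Of 11 annotated genes on a list of myotube markers, 8 were listed and all 8 were higher in siH19, with a median difference of 0.69 and a sum of 5258 FPKM in siCon and 8116 in siH19. Over all listed features 62.8% were higher, and the median was 0.41 for those with a symbol. This list holds the joined Myh1, Myh2, Myh3, Myh4 and Myh8 feature itself. In these bulk samples, more myotube nuclei and more RNA per myotube cannot be told apart. Of 6 markers of myoblasts and cycling cells only Myf5 was listed, at 3.41 log2 FPKM in siCon and 3.03 in siH19. Of 6 cardiomyocyte markers 4 were listed and all were higher, with a median of 1.00 and a sum of 744 and 1076 FPKM, nearly all of it from Tnnt2, which developing skeletal muscle also uses. The Myh6,Myh7 feature is 1 of these 4. No listed marker was at the floor of the table, and genes that were not listed have no value. The markers named here were chosen after their values were seen, and their part in the myosin differences was not tested.

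Partners of myosin in the thick filament and M band formed the first list of related genes. The list also holds Myot, a Z disc protein, which is among the genes counted here. Of 12 annotated genes 8 were listed, all 8 higher and 5 of them at least 1.5-fold, with a median of 0.66, beside 62.8% higher, 37.4% at least 1.5-fold higher and a median of 0.45 over all listed features. Mybph, a protein related to myosin binding protein C, was at 7.73 log2 FPKM in siCon and 8.88 in siH19, a difference of 1.15. The cytoskeletal adaptor Obsl1 differed by 1.04 (5.37 and 6.41), the slow isoform of myosin binding protein C, Mybpc1, by 0.94 (3.10 and 4.04), and the M band protein Myom1 by 0.72 (4.79 and 5.51). The largest of the 8 differences, that of Mybph, was within rounding of the 1.16 of Myl4 and below those of Myl2, Mylk4 and Myh6,Myh7.

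Few chaperones and ligases of myosin were listed. Of 10 genes 3 were, none at least 1.5-fold (37.4% of all listed features were higher by as much and 16.9% lower), and they are named here after their values were seen. Unc45b and Smyd1, which assist the folding of muscle myosin, differed by 0.51 and 0.42, and Trim63, a ubiquitin ligase of thick filament proteins also known as MuRF1, by -0.51. None of 10 annotated genes for calmodulin, myosin phosphatase and other kinases of light chain phosphorylation was listed. None of the 3 microRNAs hosted in myosin genes (Mir208a, Mir208b and Mir499) was listed.

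Transcription factors with a known part in muscle myosin gene expression were counted next. Of 20 genes 8 were listed, 7 higher and 1 lower, 4 at least 1.5-fold higher and none lower by as much, with a median of 0.57. Over all listed features 62.8% were higher and 37.4% at least 1.5-fold higher, so the latter count is not far from that of the whole list. Myog, a basic helix-loop-helix factor of terminal differentiation, was at 7.79 log2 FPKM in siCon and 9.22 in siH19, a difference of 1.43. Tead1, which binds MCAT elements in muscle genes, was at 3.35 and 4.50, a difference of 1.15. Mef2c, a MADS box partner of the Myod family, was at 6.07 and 6.91, a difference of 0.84. Tbx15, a factor of fast glycolytic fibres, differed by 0.59 (6.30 and 6.89), which is within rounding of the 1.5-fold limit of 0.585.

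Fibre-type genes other than myosin were counted in the same way. Of 8 slow genes 7 were listed, all 7 higher and 5 at least 1.5-fold, with a median of 0.94. Of 9 fast genes 6 were listed, 5 higher and 1 lower, of which 2 were at least 1.5-fold higher and 1 lower, with a median of 0.51. Over all listed features 62.8% were higher, 37.4% at least 1.5-fold higher and 16.9% at least 1.5-fold lower, with a median of 0.45, so the counts of the fast list are not far from those of the whole list. Among the slow genes, Myoz2 of the Z disc differed by 1.15 (6.00 and 7.15), the calsequestrin Casq2 by 1.10 (7.90 and 9.00) and the calcium pump Atp2a2 by 1.05 (7.13 and 8.18). Mybpc1, given above with the thick filament partners, is the next of this list.

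Among the fast genes, the calsequestrin Casq1 differed by 1.72 (3.74 and 5.46) and the calcium pump Atp2a1 by 0.69 (5.93 and 6.62). Pvalb, the calcium buffer parvalbumin of fast fibres, was lower, at 2.45 in siCon and 1.02 in siH19, a difference of -1.43. As with the myosin paralogs, the slow list had the larger median, but not every pair of paralogs followed it. The fast gene had the larger difference for calsequestrin and for troponin T (Tnnt3 at 0.53 and Tnnt1 at 0.44), and the slow gene for the calcium pumps, troponin I (Tnni1 at 0.56 and the feature joining Syt8 with Tnni2 at 0.49) and troponin C (Tnnc1 at 0.83 and Tnnc2 at 0.44), where the troponins are named after their values were seen. The lists are of unequal size and were not tested against each other.

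**Figure D5:**
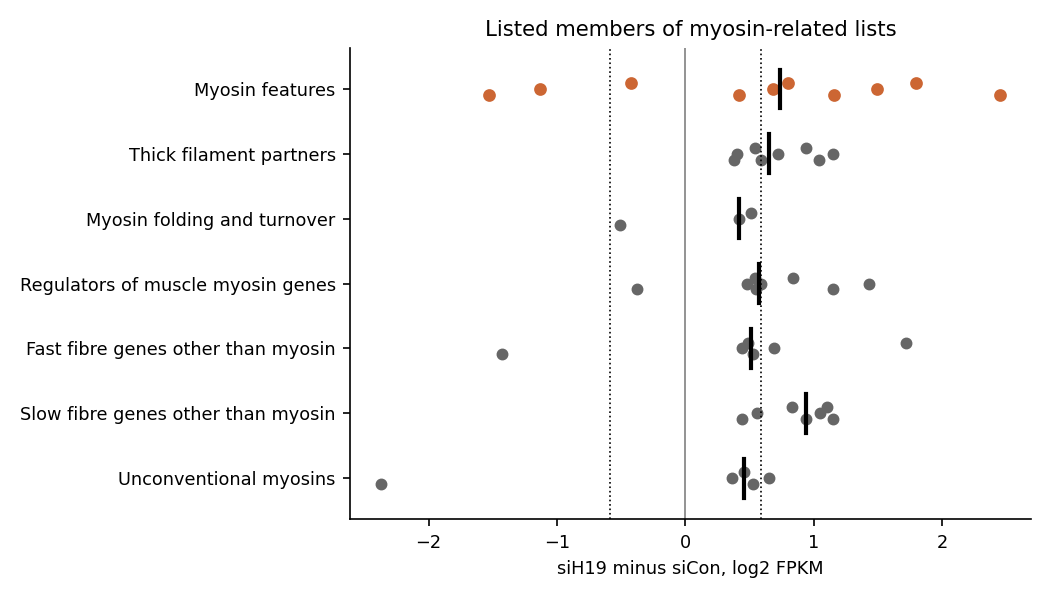
Difference of siH19 minus siCon in log2 FPKM for each listed member of the myosin features and of 6 related lists, as points, with the median of each list as a vertical bar and 1.5-fold as dotted lines. The points of the thick filament and slow fibre lists all lie above 0, and the myosin features spread from -1.53 to 2.45.

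The DNA just upstream of the myosin genes was read from RefSeq windows of GRCm38.p6, each 300 bases long with 250 before the start of a transcript and 50 after it. Of the 15 listed genes 14 had a window, 16 windows in all, and Mylk2 had none. Both strands were searched for the E box CANNTG, for its form CAGCTG, for TATAAA, and for the MEF2 motif and the CArG box (the site of serum response factor) as defined by their usual consensus. CANNTG was found in 12 of the 16 windows (72.3% of all 32851 windows held it) and CAGCTG, which is contained in that count, in 6 (16.3% of all). TATAAA was found in 8 windows (13.6% of all), the MEF2 motif in 4, namely those of Myh1, Myh4, Myh8 and Mylk4 (3.19% of all), and the CArG box in that of Myh4 alone (1.63% of all). The windows of Myl4 and Mylk held none of the 5. The RefSeq start of the Mylk window, at 34784950, lies inside the listed feature, which begins at 34745294. This window is therefore not the DNA upstream of that feature. The Myl4 window reaches into Cdc27 on the opposite strand. A match is a description of letters and not a site of binding.

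The bases upstream of the start are shown for Mylpf, Myl1 and Mylk4, since these windows hold CAGCTG and their RefSeq start lies within a listed feature with 1 symbol. For Mylpf and Myl1 this RefSeq start is the first base of the feature in the direction of the gene, while the GENCODE genes begin further upstream, at 127208890 for Mylpf and 66945404 for Myl1. The stretches are chr7:127211358-127211607 on the plus strand for Mylpf, chr1:66945057-66945306 on the minus strand for Myl1 and chr13:32783965-32784214 on the minus strand for Mylk4, all written 5′ to 3′ in the direction of the gene. Capitals mark CANNTG. Counted from the start, the form CAGCTG begins at -51 in Mylpf, at -224 in Myl1 and at -64 in Mylk4.
Mylpf: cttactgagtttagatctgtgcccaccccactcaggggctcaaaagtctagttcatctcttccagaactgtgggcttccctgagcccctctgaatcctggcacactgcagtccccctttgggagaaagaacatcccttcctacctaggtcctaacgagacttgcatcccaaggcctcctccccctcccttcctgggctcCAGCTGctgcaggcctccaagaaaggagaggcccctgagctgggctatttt
Myl1: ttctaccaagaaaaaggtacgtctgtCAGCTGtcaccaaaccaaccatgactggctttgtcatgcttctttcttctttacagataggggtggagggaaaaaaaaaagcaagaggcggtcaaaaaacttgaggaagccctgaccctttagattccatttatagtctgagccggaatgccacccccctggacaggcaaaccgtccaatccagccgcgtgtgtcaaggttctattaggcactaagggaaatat
Mylk4: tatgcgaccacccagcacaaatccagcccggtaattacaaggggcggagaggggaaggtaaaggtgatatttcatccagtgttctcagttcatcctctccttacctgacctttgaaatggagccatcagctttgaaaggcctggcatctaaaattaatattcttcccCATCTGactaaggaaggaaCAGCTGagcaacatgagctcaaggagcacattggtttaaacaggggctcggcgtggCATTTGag
These 3 features were higher in siH19, by 0.80, 0.42 and 1.80 log2 units, as were 62.8% of all 3019 listed features. They were picked for the motif, and a link between motif and difference was not tested. Myl2 also had CAGCTG in both of its windows, but its RefSeq starts (122092724 and 122093189) lie before the listed feature, which begins at 122100922.

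Of 30 genes of the family in the annotation, 15 were listed and 15 were not. Of the 14 heavy chain genes 8 were listed, of the 7 regulatory light chain genes 2, of the 5 essential light chain genes 2 and of the 4 kinase genes 3. Apart from those named above, the genes without a value were the heavy chains Myh7b and Myh15 and the regulatory light chains Myl7, Myl9, Myl10, Myl12a and Myl12b. Of these, Myl9, Myl12a and Myl12b are the regulatory chains of smooth muscle and nonmuscle myosin. Nothing can be said here of whether these genes differed between siCon and siH19.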

How the data were processed

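RNA-seq was carried out on C3H myotubes, with 3 siCon and 3 siH19 libraries. Per the labels and the study's methods, total RNA was depleted of rRNA, made into stranded libraries and sequenced from both ends over 76 bases. Per the submitters' processing notes, reads were mapped to mm10 with TopHat (1.0.0 and TopHat2 2.0.7 are named), and the groups were compared with Cuffdiff 2.1.1; the annotation is not given in the sources used here. The authors deposited 1 log2 FPKM value per group, pooled over its libraries and rounded to 2 decimals, with a floor of -10, for features that they marked significant. The table also holds the authors' fold changes and q-values, which were not used. Library depth is unknown, so precision could not be given.

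The difference of the log2 FPKM columns was computed and set against 1.5-fold, and linear FPKM was taken from the rounded logs. No test was run. Starts of loci, counted from 0 in the file, were raised by 1. The members, the lists of related and marker genes and the rule for named genes were chosen with earlier results of these data known, so that none is independent support. The rule names all listed myosin features, H19 and, from each list of related genes (not of markers), up to 4 genes with the largest absolute difference among those past 1.5-fold. Coding sequences are from GENCODE M21 (GRCm38) and were aligned with edlib 1.3.9.post1. Protein sequences were not analysed here. Python 3.11.15, numpy 2.4.6, pandas 2.3.3 and matplotlib 3.10.9 were used, and the counting was tested on simulated data. Alternatives were other member sets, a filter on low values, a pseudocount of 1 FPKM, centring on the median and a fold of at least 2.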

Additional observations from a re-analysis of the deposited data

How the results depend on the processing

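With sarcomeric chains only, the 6 features left had 0 lower in place of 3, 0 lower by at least 1.5-fold in place of 2, and a median difference of 0.98 in place of 0.74; this setting leaves out Myh14 and the kinases by construction. With features of 1 symbol only the median was 0.61. Centring on the median of features with a symbol took 0.41 from each difference, which left a median of 0.33, 4 features at least 1.5-fold higher (Mylpf and the joined Myh1, Myh2, Myh3, Myh4 and Myh8 feature no longer were) and 3 lower, and put Myl1 within the rounding error of 0, so that its direction is undecided there. With a pseudocount of 1 FPKM, 1 feature was lower by at least 1.5-fold in place of 2, as Myh14 no longer was. The log2 ratio then changed by -0.68 for the heavy chains and -1.57 for the regulatory light chains, in place of -0.81 and -1.65. A pseudocount shrinks the differences of features near 1 FPKM. At a fold of at least 2, 4 features were higher and 2 lower. Leaving out Mylk4 and Myh14, an alternative chosen after seeing the data, left the median at 0.74. The count of features higher by any amount was 6 with sarcomeric chains only, 5 with features of 1 symbol, and 7 with the filter on low values and with centring. No paired analysis was possible because each group has 1 pooled value, and leaving out a library was not run for the same reason. The depth of the libraries and their spread are unknown and limit every value.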

Other observations

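The unconventional myosins, motors that carry cargo or tether membranes and do not form thick filaments, were listed for 5 of 25 annotated genes, with 4 higher and 1 lower in siH19 and a median difference of 0.46. Over all listed features 62.8% were higher and the median was 0.45, close to these values. Myo7b, a motor of brush border microvilli, was at 0.09 log2 FPKM in siCon and -2.28 in siH19, a difference of -2.37 that exceeds every decrease among the myosin heavy and light chains and their kinases. Myo18b, a muscle myosin needed for sarcomere assembly, was at 1.64 and 2.29, a difference of 0.65. Both levels of Myo7b are low, and no spread between libraries is known for either gene.

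Markers of other cell types were listed for few genes, and those named here were chosen after their values were seen. Of 5 smooth muscle markers Acta2 alone was listed, at 9.28 and 9.75 log2 FPKM, and myotubes also express this actin while they differentiate. Of 6 fibroblast markers Col1a1 alone was listed, at 4.81 and 5.22. None of 4 adipocyte, 3 endothelial and 3 annotated macrophage markers was listed, which leaves their levels without a value. Nppb, a natriuretic peptide on the cardiomyocyte list, was at -0.78 and 0.47, a difference of 1.25, and the feature joining Dnaaf3 with Tnni3, the cardiac troponin I, differed by 0.76.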
